A study of Mus musculus with 6 samples.

Results

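Collagen hydroxylases and collagen chaperones are proteins of the endoplasmic reticulum that modify procollagen chains and help them fold before secretion. The 10 genes analysed here were the prolyl 3-hydroxylases P3h1 and P3h3, the cartilage-associated protein gene Crtap, the catalytic subunits of prolyl 4-hydroxylase P4ha1, P4ha2 and P4ha3, the lysyl hydroxylases Plod1, Plod2 and Plod3, and Serpinh1, which encodes the collagen chaperone HSP47. They were chosen by symbol, and all 10 were found among the 41388 Ensembl genes with counts. RNA-seq compared 3 samples of tumor-initiating cells (TICs), sorted as CD24+CD90+CD45-, with 3 samples of non-CD24+CD90+ tumor cells, which are the CD45- cells outside the double-positive gate. The sample labels name the second group only as primary cells, and the series description names it as CD24-CD90-. All cells came from mammary tumors of 12-week-old female mice of the strain FVB/N-TgN(MMTVPyVT)634Mul/J, in which the mouse mammary tumor virus promoter drives the polyoma middle T antigen mainly in mammary epithelium. Both groups carry the transgene. A sample was a pool of 4 cell sorts, with 12 mice in a group, and p-values measure the spread between pools. The total count was between 6781239 and 8450038 in non-CD24+CD90+ tumor cells and between 8114933 and 9100552 in TICs. Levels are given as CPM, the count of a gene scaled to the size of its library, and a count of 3 equals 0.33 to 0.44 CPM, which covers counting error only. The sort markers themselves overlapped between the groups: Thy1, which encodes CD90, had 51.4 ± 27.5 CPM in non-CD24+CD90+ tumor cells and 122.6 ± 73.7 CPM in TICs, and Cd24a had 470 ± 115 and 370 ± 63.6 CPM (SD, n = 3; adjusted p = 0.350 and 0.985, edgeR's exactTest).

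Collagen chains are modified while they are still unfolded. Prolyl 4-hydroxylase, a tetramer of P4ha subunits and the disulfide isomerase P4hb, makes the hydroxyproline that keeps the triple helix stable at body temperature. Prolyl 3-hydroxylases act on few positions, and P3h1 does so in a complex with Crtap and cyclophilin B (Ppib). Lysyl hydroxylases prepare lysines for glycosylation and for cross-links, with Plod2 acting mainly on the telopeptides and Plod1 on the helix, and P3h3 is known as a partner of P3h4 and Plod1 in a complex needed for helical lysine hydroxylation. Serpinh1 binds the folded triple helix and escorts it towards the Golgi. In tumors these genes are best known from collagen-producing fibroblasts and from hypoxic cancer cells.

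The bases upstream of the start are shown for P3h3, P3h1 and Serpinh1, the genes whose normalized values did not overlap between the groups, as sequence context for the values that follow. They are RefSeq promoter sequences of GRCm38.p6 on the strand of the gene, without the bases inside the annotated gene. Capitals mark matches, on either strand, to CCAAT (the NF-Y box), GGGCGG (the GC box bound by Sp1) and ACGTG or GCGTG (the core of the hypoxia response element). The P3h3 sequence lies at chr6:124857753-124857917 on the minus strand, that of P3h1 at chr4:119232715-119232914 on the plus strand and that of Serpinh1 at chr7:99353240-99353439 on the minus strand.
P3h3: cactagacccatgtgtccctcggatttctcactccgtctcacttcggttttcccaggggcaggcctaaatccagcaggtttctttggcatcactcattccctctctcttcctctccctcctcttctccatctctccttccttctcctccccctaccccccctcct
P3h1: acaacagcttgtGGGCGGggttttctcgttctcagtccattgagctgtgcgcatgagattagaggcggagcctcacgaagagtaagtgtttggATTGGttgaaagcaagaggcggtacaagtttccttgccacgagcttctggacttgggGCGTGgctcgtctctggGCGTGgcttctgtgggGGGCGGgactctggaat
Serpinh1: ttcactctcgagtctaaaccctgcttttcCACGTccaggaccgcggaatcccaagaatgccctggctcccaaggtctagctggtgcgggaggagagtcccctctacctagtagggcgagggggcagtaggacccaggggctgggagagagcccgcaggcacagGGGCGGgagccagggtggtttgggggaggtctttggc

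None of these letters occurred in the 200 bases before the RefSeq start of P3h3. Among 32851 RefSeq promoters cut to the same 200 bases, 29.3% held CCAAT, 31.0% GGGCGG, 14.0% ACGTG and 24.7% GCGTG. P3h3 also lacked TATAAA, the TATA box, which 9.96% of promoters held. The P3h3 window was rich in pyrimidines, with C or T at 79.5% of positions on the strand of the gene, and 0.107% of all promoters reached this share. The windows shown for P3h1 and Serpinh1 had 46.5% and 44.5%. P3h1 had a further RefSeq promoter at chr4:119233629-119233828, which lies inside the annotated gene and is not shown. It had 58% pyrimidines and held CCAAT and ACGTG. Of the 10 genes, 9 had a promoter entry, and Plod2 had none. The windows of P4ha1, P4ha2 and Plod3 held both ACGTG and GCGTG, and the window of P4ha3 held 5 copies of GGGCGG, some of them overlapping. A match is a run of letters, and no binding was measured here.

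P3h3 was 6.03-fold higher in TICs and was the only one of the 10 genes past the threshold of edgeR's exactTest. All 10 passed the filter of more than 1 CPM in at least 3 samples. At an adjusted p-value below 0.1, 1 of the 10 genes was called higher in TICs and 0 were called lower, while 1.36% of the 12192 tested genes were called higher and 0.189% lower. At an unadjusted p-value below 0.05 the same test gave 2 higher (P3h3 and Serpinh1) and 0 lower, beside 4.74% of all tested genes higher and 3.11% lower. The quasi-likelihood test of edgeR called 1 gene higher and 0 lower, against 0.402% of all genes called higher, and DESeq2 called P3h3 and Serpinh1 higher and 0 lower, against 1.89% of all genes called higher. In P3h3, P3h1 and Serpinh1 every TIC sample was above every other sample in CPM, a pattern seen in 7.69% of all tested genes. The reverse pattern was seen in 0 of the 10 genes and in 7.55% of all genes. The median log2 fold change of the 10 genes was 0.69, beside -0.01 for all tested genes, and 8 of the 10 were above 0.

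**Figure D1:**
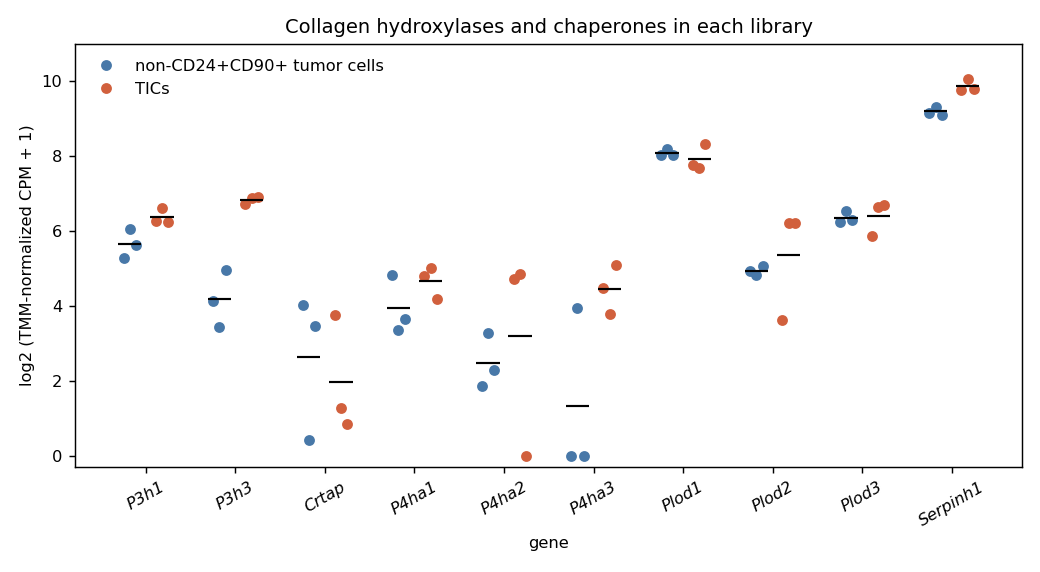
Expression of the 10 genes in each library as log2 of normalized CPM plus 1, with 3 points per group and lines at the group means of these log2 values. P3h3 reaches 104.3 to 120.1 CPM in TICs and 9.76 to 30.3 CPM in non-CD24+CD90+ tumor cells. P4ha2 scatters most in TICs, P4ha3 most in non-CD24+CD90+ tumor cells, and Crtap widely within both groups.

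P3h3 (ENSMUSG00000023191) lies on chromosome 6 of GRCm38, from 124841089 to 124857752 on the minus strand. It had 113, 86 and 212 counts in replicates 1 to 3 of the non-CD24+CD90+ group and 949, 998 and 910 counts in TICs. The 3 TIC samples lay close together and far above all samples of the other group. After scaling by the trimmed mean of M-values (TMM), P3h3 had 18.9 ± 10.5 CPM in non-CD24+CD90+ tumor cells and 113.6 ± 8.24 CPM in TICs (SD, n = 3). The log2 fold change was 2.59 with a standard error of 0.45, and the adjusted p-value of edgeR's exactTest was 9.45e-05, at rank 10 of all tested genes. The adjusted p-value was 3.09e-05 in DESeq2 and 0.0523 in the quasi-likelihood test of edgeR. No exon of another gene overlapped P3h3 in the annotation, and no near-identical stretch was found in transcripts of other genes.

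P3h1 (ENSMUSG00000028641, chromosome 4, 119232915 to 119248975, plus strand) had 259, 578 and 336 counts in the non-CD24+CD90+ group and 686, 825 and 563 counts in TICs. Raw counts overlapped, but normalized values did not, with 37.8 to 65.6 CPM against 74.3 to 96.2 CPM. Its log2 fold change of 0.70 (standard error 0.40) did not pass the test (adjusted p = 0.787, edgeR's exactTest). The third family member P3h2 had 0 to 22 counts in any sample, and 28.4% of its exon bases overlap an antisense gene.

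Within the prolyl 3-hydroxylase family the share of P3h3 did not overlap between the groups. Of the counts of P3h1, P3h2 and P3h3 together, P3h3 made up 27.0% ± 13.2 in non-CD24+CD90+ tumor cells and 57.8% ± 3.85 in TICs (SD, n = 3). The shares ranged from 12.8% to 38.7% and from 54.1% to 61.8%. Such a share does not depend on the scaling between libraries. An exact permutation test of the difference (two-sided) gave p = 0.1, the smallest that 3 against 3 samples allow, and 0.2 after Benjamini-Hochberg adjustment over 4 tests. With counts divided by exon length the mean shares were 26.6% and 57.3%.

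**Figure D2:**
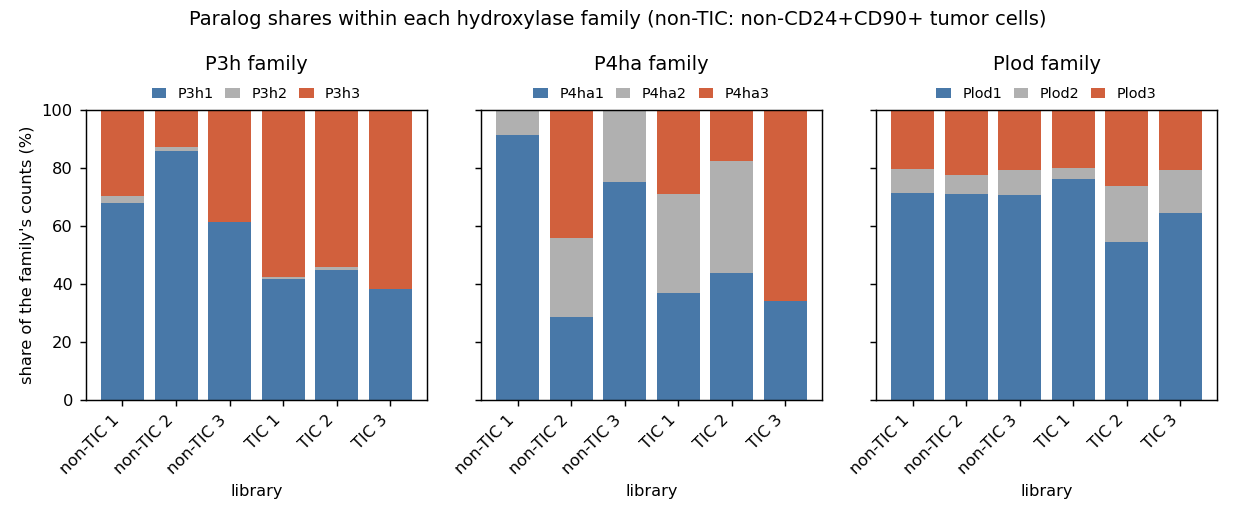
Share of each paralog in the counts of its family, in percent, for each library. P3h3 holds 12.8% to 38.7% of the P3h counts in non-CD24+CD90+ tumor cells (non-TIC) and 54.1% to 61.8% in TICs, whereas the P4ha and Plod shares overlap between the groups.

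No partner in the P3h complexes passed the test. Crtap (ENSMUSG00000032431, chromosome 9, 114375134 to 114390675, minus strand), which has no hydroxylase activity of its own, had 105, 3 and 70 counts in the non-CD24+CD90+ group and 114, 12 and 6 counts in TICs. Both groups held high and low samples, and the log2 fold change of -0.80 had a 95% interval from -3.89 to 2.29. Of the genes with a similar mean count in the other 2 samples of the group, 33.0% and 34.8% were at or below the count of Crtap in TIC replicates 2 and 3, and 4.48% in replicate 2 of the other group. Ppib had 2, 6 and 58 counts against 0, 13 and 4 counts and was not tested. Of its exon bases 25.0% overlap Snx22 on the other strand, and 36.9% of its transcript had near-identical stretches in transcripts of other genes. Reads that did not map uniquely were removed by the authors. Whether this lowered the counts of Ppib was not tested, and these counts are uncertain. P3h4 had 37.7 ± 13.6 CPM in non-CD24+CD90+ tumor cells and 45.8 ± 18.7 CPM in TICs (SD, n = 3), and its log2 fold change of 0.28 had a 95% interval from -0.76 to 1.32.

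The prolyl 4-hydroxylase subunits had low counts that varied strongly within groups, and none was called. P4ha1 (ENSMUSG00000019916, chromosome 10, 59323296 to 59373304, plus strand), a widely expressed subunit, had 188, 81 and 81 counts in the non-CD24+CD90+ group and 246, 270 and 130 counts in TICs. The normalized values overlapped, and the log2 fold change of 0.65 had a 95% interval from -0.85 to 2.15. P4ha2 (ENSMUSG00000018906, chromosome 11, 54100095 to 54131665, plus strand), a second catalytic subunit, had 18, 77 and 27 counts against 229, 240 and 0 counts. TIC replicates 1 and 2 were above all other samples, while TIC replicate 3 had no count. Its log2 fold change was 1.80 with a 95% interval from -0.94 to 4.54. Of the genes with a similar mean count in TIC replicates 1 and 2, 3.01% had no count in TIC replicate 3.

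P4ha3 (ENSMUSG00000051048, chromosome 7, 100285520 to 100319699, plus strand), the third catalytic subunit, had 0, 126 and 0 counts in the non-CD24+CD90+ group and 194, 109 and 252 counts in TICs. The overlap came from replicate 2 of the first of these groups. With all samples the adjusted p-value of edgeR's exactTest was 0.940. Without that replicate the remaining 2 samples of its group had no count, and the gene was called higher in TICs with an adjusted p-value of 0.0117. Of the genes with a similar mean count in the other 2 samples of the group, 12.5% and 13.4% had no count in replicates 1 and 3. The share of P4ha1 in the P4ha counts was 64.9% ± 32.6 in non-CD24+CD90+ tumor cells and 38.1% ± 4.94 in TICs (SD, n = 3; exact permutation test, two-sided, p = 0.4, adjusted p = 0.4 over the same 4 tests). The difference in percentage points was -26.8, and it was -13.6 without replicate 1 and -44.99 without replicate 2 of the non-CD24+CD90+ group. The mean of P4hb was 337 ± 28.1 CPM in the non-CD24+CD90+ group and 400 ± 92.2 CPM in TICs, and its log2 fold change of 0.25 had a 95% interval from -0.32 to 0.83.

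None of the lysyl hydroxylases passed the test. Plod1 (ENSMUSG00000019055, chromosome 4, 147909753 to 147936767, minus strand) had 1780, 2582 and 1836 counts in the non-CD24+CD90+ group and 1982, 1760 and 2411 counts in TICs. The groups overlapped in CPM, and the log2 fold change of -0.14 had a 95% interval from -0.72 to 0.45, narrower than that of any P4ha subunit. Plod2 (ENSMUSG00000032374, chromosome 9, 92542223 to 92608428, plus strand) had 202, 241 and 226 counts against 103, 629 and 551 counts. The TIC samples split around the other group, with replicate 1 below all its samples and replicates 2 and 3 above them. Its log2 fold change was 0.82 with a 95% interval from -0.40 to 2.04. Plod3 (ENSMUSG00000004846, chromosome 5, 136987019 to 136996648, plus strand), which also carries glycosyltransferase activity, had 510, 814 and 541 counts against 522, 846 and 772 counts. Its log2 fold change was 0.08 with a 95% interval from -0.65 to 0.81, and it was -0.03 and -0.04 without TIC replicate 2 and without TIC replicate 3. Exons of other genes overlap 6.42% of the exon bases of Plod2 and 11.9% of those of Plod3. The share of Plod2 in the Plod counts was 7.80% ± 1.06 in non-CD24+CD90+ tumor cells and 12.7% ± 7.95 in TICs (SD, n = 3; exact permutation test, two-sided, p = 0.4, adjusted p = 0.4). The difference in percentage points was 4.91, and it was 9.30 without TIC replicate 1 and 1.55 without TIC replicate 2.

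Serpinh1 (ENSMUSG00000070436, chromosome 7, 99345376 to 99353239, minus strand) had 3917, 5599 and 3867 counts in the non-CD24+CD90+ group and 7895, 9225 and 6720 counts in TICs. All TIC samples were above all other samples, in counts and in CPM. The means were 587 ± 43.1 CPM and 943 ± 115 CPM (SD, n = 3), a 1.61-fold difference, and the log2 fold change of 0.69 had a standard error of 0.27. The adjusted p-value was 0.323 in edgeR's exactTest and 0.297 in its quasi-likelihood test, whereas DESeq2 called Serpinh1 with an adjusted p-value of 0.0101. It made up 53.7% to 55.2% of the counts of the 10 genes in non-CD24+CD90+ tumor cells and 54.6% to 61.9% in TICs.

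**Figure D3:**
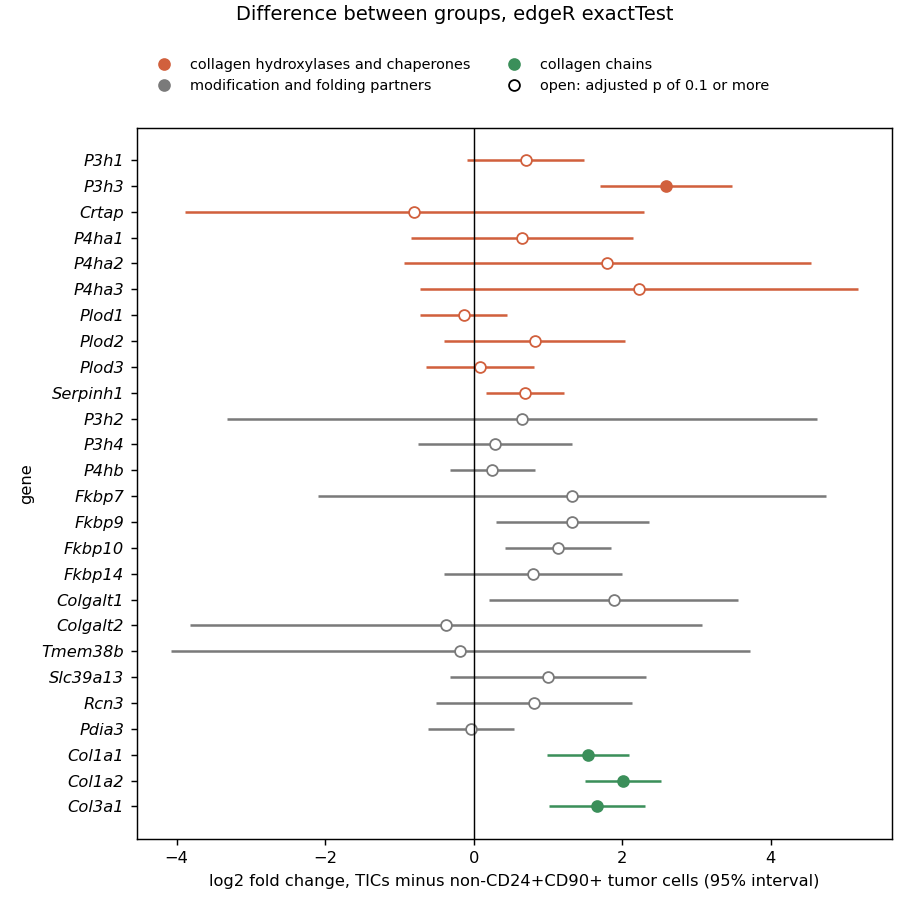
Log2 fold change of each of the 10 genes, TICs over non-CD24+CD90+ tumor cells, with 95% intervals from the negative binomial model. The interval of P3h3 runs from 1.70 to 3.48 and that of Serpinh1 from 0.16 to 1.21. Those of the other 8 of the 10 genes include 0.

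Per kilobase of exon, Serpinh1 had the highest level in both groups, with 240 ± 17.6 and 386 ± 47.0 CPM per kb (SD, n = 3). Plod1 followed with 40.2 ± 2.72 and 36.5 ± 9.15 CPM per kb. P3h3 stood at rank 7 in non-CD24+CD90+ tumor cells with 4.80 ± 2.67 CPM per kb and at rank 3 in TICs with 28.9 ± 2.10 CPM per kb. In non-CD24+CD90+ tumor cells the order then ran Plod3, P3h1, Plod2, Crtap, P3h3, P4ha1, P4ha3 and P4ha2. Neighbours differed without overlap only between Serpinh1 and Plod1, Plod1 and Plod3, and P3h1 and Plod2. In TICs the order after P3h3 was P3h1, Plod3, Plod2, P4ha3, P4ha1, P4ha2 and Crtap, and neighbours did not overlap only between Serpinh1 and Plod1 and between P3h3 and P3h1.

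Several collagen genes, the substrates of these enzymes, were called higher in TICs. The type I collagen genes Col1a1 and Col1a2 were higher in TICs by log2 fold changes of 1.54 and 2.01, with adjusted p-values of 0.000122 and 2.37e-09 in edgeR's exactTest, and Col3a1 by 1.66 with 0.000662. Of 10 tested fibrillar collagen genes 5 were called higher and 0 lower, with a median log2 fold change of 1.21. Of 5 tested basement membrane collagen genes 2 were called higher (Col4a1 and Col4a2) and 0 lower. The other 3 were below 0, and the median log2 fold change of the 5 was -0.33. Per 100 counts of Col1a1 and Col1a2, the 10 genes together had 47.5 ± 8.04 counts in the non-CD24+CD90+ group and 21.7 ± 1.78 in TICs (SD, n = 3), a log2 difference of -1.12. The groups did not overlap (exact permutation test, two-sided, p = 0.1, the smallest possible, adjusted p = 0.2). Because Col1a1 and Col1a2 were themselves called higher, a gene at the median log2 fold change of all tested genes, -0.01, also falls on this ratio. The test therefore cannot show a fall particular to the 10 genes. Serpinh1 went from 26.0 ± 4.56 to 12.9 ± 1.87 and Plod1 from 12.03 ± 2.05 to 3.35 ± 0.618 per 100 type I collagen counts. P3h3 had 0.807 ± 0.402 and 1.55 ± 0.122, and its TIC samples, at 1.46 to 1.69, were all above the 0.479 to 1.26 of the other group. With luminal epithelial markers as the denominator the log2 difference of the 10 genes together was 1.11, and their summed level was 1029 to 1156 CPM in non-CD24+CD90+ tumor cells and 1420 to 1739 CPM in TICs. The ratios for single genes were chosen after their counts were seen and are given as a description.

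**Figure D4:**
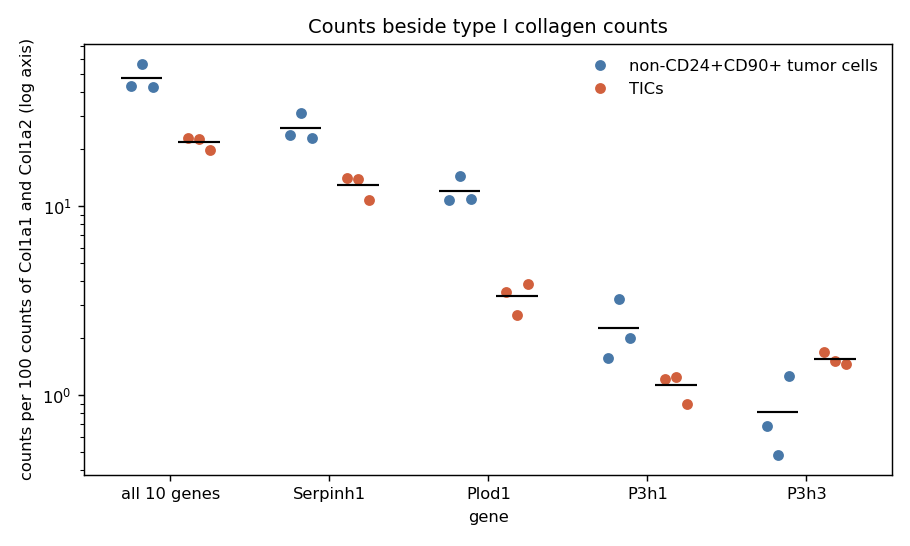
Counts of the collagen-modifying genes per 100 counts of Col1a1 and Col1a2 in each library. The 10 genes together lie at 42.6 to 56.8 in non-CD24+CD90+ tumor cells and at 19.7 to 23.0 in TICs, while P3h3 is at 0.479 to 1.26 and at 1.46 to 1.69.

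Other proteins that modify or fold collagen were tested as a list of 13 genes. In edgeR's exactTest 0 were called in either direction, 3 were higher and 0 lower at an unadjusted p-value below 0.05 (4.74% and 3.11% of all tested genes), the quasi-likelihood test called 0, and DESeq2 called Fkbp10 alone. The median log2 fold change was 0.80, and 10 of the 13 were above 0. Fkbp10, a prolyl isomerase and collagen chaperone, had 57.1 ± 8.36 CPM in non-CD24+CD90+ tumor cells and 125 ± 37.4 CPM in TICs (SD, n = 3), with a log2 fold change of 1.13 and an adjusted p-value of 0.121 in edgeR's exactTest. The related isomerase gene Fkbp9 had 19.7 ± 2.48 and 49.4 ± 4.35 CPM (log2 fold change 1.32, adjusted p = 0.352). Colgalt1, which adds galactose to hydroxylysine, had 6.70 ± 1.32 and 24.7 ± 8.74 CPM (log2 fold change 1.88, adjusted p = 0.561). In these 3 genes and in Fkbp14 every TIC sample was above every other sample, a pattern seen in 7.69% of all tested genes. The reverse was seen in 0 of the 13 and in 7.55% of all tested genes.

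Genes of related enzymes and of regulation by oxygen or TGF-beta were examined as lists. Of 9 other prolyl and asparaginyl hydroxylase genes, which include the oxygen sensors, 0 were called by edgeR's exactTest, its quasi-likelihood test or DESeq2, 0 were higher and 1 lower (Egln3) at an unadjusted p-value below 0.05, and the median log2 fold change was -0.01. Of 15 tested targets of hypoxia-inducible factor (HIF), 0 were called by both edgeR tests, and DESeq2 called 1 lower (Aldoa). At an unadjusted p-value below 0.05, 1 was higher (Adm) and 2 lower (Aldoa and Egln3, which is on both lists). The median was -0.06, with 7 above 0 and 8 below. In 3 of the 15 every TIC sample was below every other sample, and in 0 above, beside 7.55% and 7.69% of all tested genes. Their summed level was 3425 to 3816 CPM in non-CD24+CD90+ tumor cells and 2055 to 3077 CPM in TICs. Of 9 TGF-beta response genes 2 were called higher by edgeR's exactTest, Fn1 with a log2 fold change of 1.51 and Postn with 1.15, and the median was 0.82.

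The level of markers of several cell types differed between the groups in the same libraries. Of 11 tested fibroblast markers 5 were called higher (Dcn, Dpt, Mfap5, Pi16 and Fbln1), and the summed level of the list was 1158 to 1230 CPM in non-CD24+CD90+ tumor cells and 1890 to 3325 CPM in TICs, with Tcf21 at 0 in all libraries. The pericyte and smooth muscle list had 597 to 774 and 1037 to 1679 CPM, with 1 of 10 called, and the endothelial list 199 to 281 and 255 to 1192 CPM, with 0 of 10 called by edgeR's exactTest, its quasi-likelihood test or DESeq2 and 5 higher at an unadjusted p-value below 0.05. The luminal epithelial list was at 6184 to 6553 and 4095 to 4799 CPM, with 0 of 10 called by both edgeR tests, 2 lower in DESeq2 and all 10 below 0 in log2 fold change. The leukocyte marker Ptprc, which encodes CD45, had 33 counts in one non-CD24+CD90+ library and 0 in the other 5. The 4 tested leukocyte markers summed to 20.7 to 42.0 and 46.0 to 127.7 CPM, with Cd3e and Adgre1 at 0 and not tested. Of these 4, 1 was called higher (Lyz2, log2 fold change 2.68, adjusted p = 0.0125, edgeR's exactTest). Lyz2 alone had 8.57 ± 3.86 CPM in non-CD24+CD90+ tumor cells and 55.1 ± 24.4 CPM in TICs (SD, n = 3). In log2 fold change 2 of the 4 were above 0 and 2 below, so no rise of the leukocyte markers as a set was shown. Of the adipocyte markers only Fabp4 passed the filter, with 56.5 to 136.7 CPM in non-CD24+CD90+ tumor cells and 192 to 1225 CPM in TICs. It was called higher (log2 fold change 2.75, adjusted p = 0.000466, edgeR's exactTest). Adipoq, Plin1 and Lep were at 0 in all libraries, so no rise of the adipocyte markers as a set was shown. Basal and myoepithelial markers summed to 806 to 1370 and 638 to 1083 CPM. In such sorted pools fewer cells of a type and less RNA per cell cannot be told apart, and the part of these cell types in the differences above was not tested.

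P3h3 was also compared with these marker lists in each library, a ratio chosen after its counts were seen and given without a test. Per 100 counts of the fibroblast markers, P3h3 had 1.57 ± 0.837 counts in the non-CD24+CD90+ group and 4.24 ± 1.11 in TICs (SD, n = 3), with ranges of 0.811 to 2.47 and 3.59 to 5.52. Per 100 counts of the pericyte and smooth muscle markers it had 2.69 ± 1.27 and 8.48 ± 1.47, again without overlap. Per 100 endothelial marker counts the ranges overlapped, at 4.02 to 15.3 and 10.1 to 40.9. Per 100 luminal epithelial marker counts P3h3 had 0.149 to 0.490 and 2.17 to 2.93. Serpinh1 overlapped per 100 fibroblast marker counts, at 44.98 to 52.8 and 26.7 to 45.9, and did not overlap per 100 luminal epithelial marker counts, at 8.77 to 9.69 and 18.1 to 24.8.

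The genes closest to P3h3 in pattern were Gjc1, F2r and Sulf1, among 6767 genes with a mean of at least 20 CPM. Likeness was the root mean square difference of centred log2 CPM over the 6 libraries, which was 0.26 for Gjc1, 0.33 for F2r and 0.36 for Sulf1. Their log2 fold changes were 2.20, 2.35 and 2.28. For Serpinh1 the closest genes were Tpm2, Lbh and Atp2a2, with differences of 0.11, 0.11 and 0.12.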

How the data were processed

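RNA-seq libraries of 6 samples were analysed from raw read counts per Ensembl gene, which the authors deposited without normalization. The authors used Trimmomatic 0.32 for trimming and STAR 2.4.0 for alignment to GRCm38, removed reads not mapped uniquely with SAMtools 1.1 and counted with HTSeq, whose version is not given in the sources used here. Whether strand was used in counting is likewise not given. Samples had 120 ng of RNA with an RNA integrity number above 6.

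Gene symbols and coordinates came from the GENCODE annotation of GRCm38. Genes needed a CPM above 1 in 3 or more samples, and libraries were scaled by TMM in edgeR 4.0.16 (R 4.3.3). Differential expression was tested over all 12192 kept genes with exactTest, and p-values were adjusted by the Benjamini-Hochberg method with a threshold of 0.1. The log2 fold changes have standard errors and 95% intervals from the negative binomial fit. Alternatives were the quasi-likelihood test, DESeq2 1.42.0, other scalings, filters and dispersions, and each replicate left out. The tests were run on simulated counts with known changes. There unchanged genes made up a larger share of the calls than the threshold allows with exactTest, and a still larger share with DESeq2, while the quasi-likelihood test stayed within it.

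The named genes were the 10 chosen genes, their partners in collagen modification, Col1a1, Col1a2 and Col3a1, the most abundant or called genes of the other lists, and the 3 genes nearest in pattern to the members with the smallest p-values. Egln3, Adm, Thy1, Cd24a, Ptprc and the marker genes at 0 were named after their values were seen. Members and lists were chosen with earlier results of these data known. Libraries of a group differed by more than counting noise. Replicates were numbered in accession order and not paired. No protein sequence was used here.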

Additional observations from a re-analysis of the deposited data

How the results depend on the processing

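P3h3 was called higher in TICs under all 14 alternatives, with a log2 fold change of 2.28 to 3.12 when single replicates were left out and of 2.53 to 2.63 otherwise, and adjusted p-values of 1.97e-05 to 0.0523. Of the 10 genes, DESeq2 called 2 higher (P3h3 and Serpinh1). Leaving out single replicates gave 1 to 2, the second being P4ha3 without replicate 2 of the non-CD24+CD90+ group. Under all 14 alternatives 0 of the 10 were called lower. With at least 10 counts in every sample 7 of the 10 were tested, since P4ha2, P4ha3 and Crtap were dropped. Over all genes, 166 were called higher and 23 lower. The quasi-likelihood test gave 49 and 1, no filter beyond 1 count 108 and 4, and an adjusted p-value below 0.05 gave 109 and 7. DESeq2 called 75 lower, the filter of 10 counts 50 and a trended dispersion 11. Leaving out single replicates gave 69 to 225 higher and 2 to 98 lower. The cause of these shifts was not tested. The log2 difference of the 10 genes per 100 type I collagen counts was -1.12, between -1.19 and -0.98 without single replicates, and 1.11 with luminal epithelial markers as the denominator. Without single replicates the differences in family shares, in percentage points, kept their direction and were 23.7 to 36.6 for P3h3, -44.99 to -13.6 for P4ha1 and 1.55 to 9.30 for Plod2. No paired analysis was possible because the labels give the groups no shared replicate numbers.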
